A study of Mus musculus with 4 samples.

Results

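The neuropeptide precursor genes Sst, Vip, Npy, Cck, Tac1, Cort, Nts and Adcyap1 were followed in single nuclei of the mouse hippocampus. These 8 genes were taken by symbol from a table of 56748 genes, and all 8 were present in it. The study asked whether interleukin-1 receptor signaling in neurons, or microglia, shaped the response of hippocampal neurons to repeated social defeat (RSD). Male mice met an aggressor for 2 h on each of 6 nights, control mice were left undisturbed, and nuclei were collected 14 h after the last defeat. Hippocampi of 3 mice were pooled per condition, which gave 8 pools of nuclei in 4 control and stress pairs. Pair 1 was C57BL/6 mice on vehicle diet (Con-Veh and Stress-Veh). Pair 2 was C57BL/6 mice on diet with PLX5622 from 7 days before RSD, a CSF1R inhibitor that depletes microglia (Con-PLX and Stress-PLX). Pair 3 was Cre-negative mice with an intact receptor (called Con-IL-1R1+/+, and Stress-IL-1R1+/+ after defeat). Pair 4 was mice in which Cre under the control of Vglut2 (Slc17a6) deleted Il1r1 (Con-nIL-1R1-/- and Stress-nIL-1R1-/-). Il1r1 is thus deleted only in cells that express or once expressed Vglut2, and inhibitory neurons are not the cells aimed at. Each condition is a single pool, so the error of an RSD difference comes only from the spread over the 4 pairs. The pairs differ in diet or genotype, so any difference in the RSD response between them also enters that error. A ratio over the 4 pairs is therefore not that of untreated mice with an intact receptor alone.

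Neuropeptides are cut from larger precursors, packed into dense-core vesicles and released on strong firing, and they act on G protein-coupled receptors. In the hippocampus several of them divide the inhibitory interneurons into classes. Somatostatin (Sst) marks interneurons that contact distal dendrites, and cortistatin (Cort) is its close relative and shares its receptors. Vasoactive intestinal peptide (Vip) marks interneurons of which many contact other interneurons. Neuropeptide Y (Npy) is made by neurogliaform cells and by part of the somatostatin cells. Cholecystokinin (Cck) is made by basket cells that carry the cannabinoid receptor Cnr1, and also by pyramidal neurons. Tachykinin 1 (Tac1) encodes substance P and neurokinin A. Neurotensin (Nts) and PACAP (Adcyap1) are better known from excitatory cells of the hippocampal formation.

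Several of these genes are classic targets of CREB, the factor whose phosphorylated form the study stained in the hippocampus. The 100 bases in front of the RefSeq transcription start are printed for Sst, Vip, Npy, Cck and Tac1, so that the CREB element can be read in place. These are the 5 members with enough counts for a test. The sequences come from RefSeq (GRCm38.p6) and were located by exact match in GRCm39. They lie at chr16:23709595-23709694 (Sst, minus strand), chr10:5589118-5589217 (Vip, plus), chr6:49799590-49799689 (Npy, plus), chr9:121324761-121324860 (Cck, minus) and chr6:7554961-7555060 (Tac1, plus). The gene spans given further below come from GENCODE, whose gene starts differ from the RefSeq starts used here. The windows therefore lie inside those spans or, for Vip, overlap the start of the span. Capitals mark the cyclic AMP response element TGACGTCA or its core TGACG, read on either strand.
Sst: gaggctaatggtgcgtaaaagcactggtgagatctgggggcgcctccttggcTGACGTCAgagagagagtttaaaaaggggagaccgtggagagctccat
Vip: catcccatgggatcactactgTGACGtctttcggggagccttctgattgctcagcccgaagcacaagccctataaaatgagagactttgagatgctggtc
Npy: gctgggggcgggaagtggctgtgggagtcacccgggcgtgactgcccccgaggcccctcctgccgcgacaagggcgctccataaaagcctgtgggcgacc
Cck: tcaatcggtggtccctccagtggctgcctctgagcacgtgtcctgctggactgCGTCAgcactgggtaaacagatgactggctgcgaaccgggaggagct
Tac1: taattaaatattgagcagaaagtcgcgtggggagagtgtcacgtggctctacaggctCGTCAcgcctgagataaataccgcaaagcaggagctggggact
The full element was present in front of Sst, where it began 48 bases before the start. The core alone was found in front of Vip, Cck and Tac1, at 79, 47 and 43 bases, and on the opposite strand in Cck and Tac1. Neither was found in the Npy window. Of 32851 windows of this length in the RefSeq table, 1.15% held TGACGTCA and 10.5% held TGACG, a count that includes the full element. A match is a description of these letters and not a measurement of binding.

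The files held 57350 nuclei, of which 56834 stayed after leaving out those with over 20% mitochondrial UMIs. The pools kept 5858 to 8474 nuclei each, and no barcode was shared between pools. Depth differed widely, with median UMIs of 598 and 628 in the PLX5622 pools, 1325.5 in Stress-Veh and 2563 to 5012 in the others. In DG-like nuclei Il1r1 was at 11.7 and 8.90 CPM in the nIL-1R1-/- control and stress pools and at 29.1 to 87.8 CPM in the other 6 pools. Microglia-like nuclei were 0.163% and 0.143% of the PLX5622 pools and 2.03% to 3.24% of the others. Levels are given as CPM, counts per 1e+06 UMIs of the group of nuclei, with an exact 95% Poisson interval that covers counting error only, and a count of 0 is given with the level that 3 UMIs would have.

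Nuclei were clustered without the 8 members, so that the classes do not depend on them, and clusters were named from marker lists. Inhibitory nuclei numbered 5792 (INH-like), of which 3047 were Lhx6-like, 1684 Adarb2-like and 1061 neurogliaform-like. The inhibitory markers Gad1, Gad2, Slc32a1 and Erbb4 were detected in the INH-like nuclei of every pool. Excitatory nuclei comprised 7655 DG-like, 5213 CA1-like, 4110 CA2/3-like and 9258 other excitatory-like nuclei, the last led by genes such as Tshz2, Fn1 and Igfn1. Another 17736 nuclei could not be named. Because a class is compared with the rest of the same nuclei, levels by class are a description without a test.

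**Figure D1:**
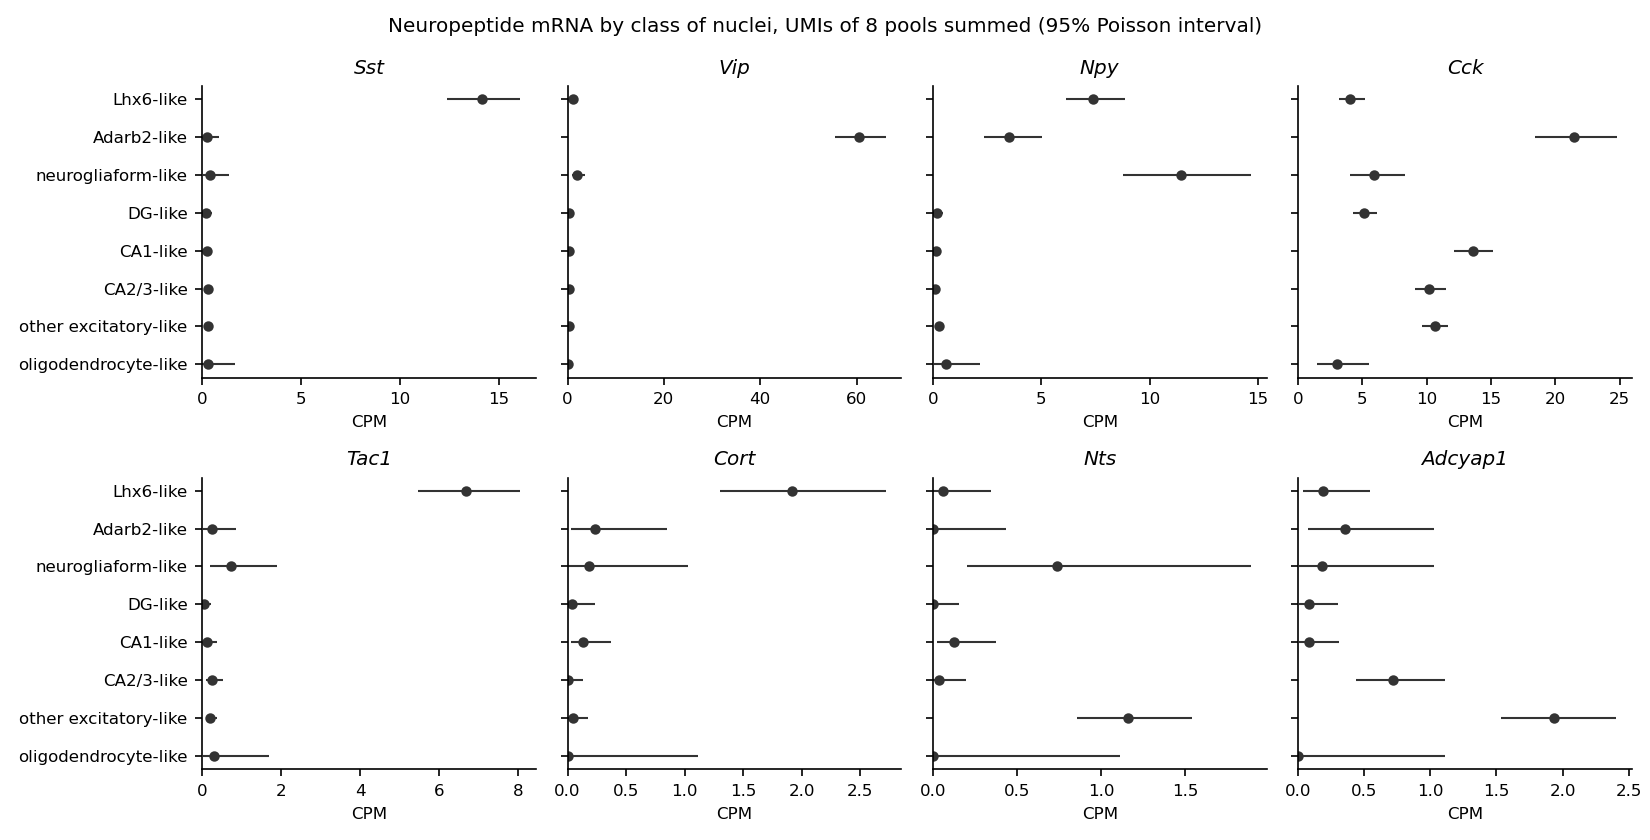
Level of each neuropeptide mRNA (x axis, CPM, a separate scale per gene) in 7 neuronal classes and in oligodendrocyte-like nuclei (y axis), with the UMIs of 8 pools summed; points are CPM and bars exact 95% Poisson intervals. Sst, Tac1 and Cort stand out in Lhx6-like, Vip in Adarb2-like and Npy in neurogliaform-like and Lhx6-like nuclei, while Cck is spread over Adarb2-like and excitatory classes.

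Sst (chr16:23707321-23711733, minus strand) was found mainly in Lhx6-like nuclei. Its level was 14.1 CPM in Lhx6-like nuclei (229 UMIs, interval 12.4 to 16.1), against 0.21 to 0.37 CPM in the other neuronal classes drawn in the plot of levels by class. Of 326 Sst UMIs in all nuclei, 71.5% were in INH-like and 13.2% in unnamed nuclei. Microglia-like nuclei held 15 UMIs, all in 6 nuclei. Across the pools the Lhx6-like level was 13.7, 10.9, 16.1 and 12.7 CPM in Con-Veh, Con-PLX, Con-IL-1R1+/+ and Con-nIL-1R1-/-, and 12.8, 18.2, 15.3 and 15.5 CPM in their stress partners. All 8 pools lay between 10.9 and 18.2 CPM and control and stress overlapped. Both ends were PLX5622 pools, with 5 and 10 Sst UMIs in all their INH-like nuclei.

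Within the inhibitory nuclei, sub-clusters are called by their leading gene. The Sv2b-led sub-cluster was the one with the most nuclei, 671 at a median of 7986 UMIs, and its nuclei fell in the Lhx6-like (393), neurogliaform-like (149) and Adarb2-like (129) classes. It had 52.5 CPM of Slc17a7, the vesicular glutamate transporter of excitatory neurons, against 4.38 to 42.2 CPM in the other sub-clusters. It held 208 nuclei and 5049981 of the 10697641 INH-like UMIs in Con-nIL-1R1-/-, but 45 nuclei and 538489 of 3492686 UMIs in Stress-nIL-1R1-/-. Its levels were 4.80 CPM for Sst, 7.10 for Vip, 5.01 for Npy (48 UMIs), 7.72 for Cck and 2.51 for Tac1, and the RSD ratios were fitted with and without it. The Banf2-led sub-cluster of 611 nuclei, 544 of them Lhx6-like, was shallow (median 688 UMIs). Of its nuclei, 238 came from Con-PLX and 171 from Stress-PLX. The Lypd6-led sub-cluster of 552 nuclei held the most Sst UMIs, with 118 of the 233 in INH-like nuclei, at 48.9 CPM (40.5 to 58.5). In this sub-cluster Sst was 52.4, 47.7, 46.7 and 57.3 CPM in the control pools of pairs 1 to 4 and 25.9, 47.0, 48.2 and 42.5 CPM in the stress pools, the lowest of which, Stress-Veh, rests on 3 UMIs. The values of Con-PLX and Stress-PLX rest on 2 UMIs each. A small Nos1-led sub-cluster of 17 nuclei had 73.9 CPM from 7 UMIs (29.7 to 152), and its interval covers that of the Lypd6-led nuclei. Without Stress-IL-1R1+/+, which gave 4 of these UMIs, it was at 44.8 CPM (9.24 to 131). Rtkn2-led nuclei had 14.2 CPM (28 UMIs, 9.44 to 20.5). Cort (chr4:149209491-149211266, minus strand) was sparse, with 47 UMIs in all, of which 72.3% were INH-like. It was highest in Lhx6-like nuclei at 1.91 CPM (31 UMIs, 1.30 to 2.72), and within them in the Lypd6-led (5.80 CPM, 14 UMIs) and Rtkn2-led (4.06 CPM, 8 UMIs) sub-clusters.

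Npy (chr6:49799026-49806489, plus strand) was found in more than 1 inhibitory class. It was at 11.4 CPM in neurogliaform-like nuclei (62 UMIs, 8.77 to 14.7), 7.41 CPM in Lhx6-like nuclei (120 UMIs, 6.14 to 8.86) and 3.52 CPM in Adarb2-like nuclei (30 UMIs, 2.37 to 5.02). The intervals of the upper pair overlap slightly and that of Adarb2-like nuclei lies below both. These class levels include the Sv2b-led nuclei. The neurogliaform-like class took in 498 Vcan-led, 211 Dock5-led, 149 Sv2b-led and 113 Unc5b-led nuclei. No Npy UMI was found in Unc5b-led nuclei, where 3 UMIs would be 3.89 CPM. The part of this makeup in the class levels was not tested. The Nos1-led nuclei again had the highest value, 94.99 CPM from 9 UMIs (43.4 to 180). Of these, 6 UMIs came from 2 nuclei of Stress-nIL-1R1-/-, and without that pool the value was 51.4 CPM from 3 UMIs (10.6 to 150). Dock5-led nuclei, whose leading genes include the neurogliaform markers Sv2c, Kit, Egfr and Ndnf, had 27.7 CPM (19 UMIs). Rtkn2-led and Vcan-led nuclei had 18.3 and 15.3 CPM, whereas the Lypd6-led nuclei that carried the most Sst UMIs had 5.38 CPM (13 UMIs). In neurogliaform-like nuclei Npy was 7.37, 0, 19.96 and 10.8 CPM in the control pools of pairs 1 to 4 and 6.07, 0, 12.6 and 21.98 CPM in the stress pools. The 2 values of 0 are the shallow PLX5622 pools, where 3 UMIs would be 17.3 and 23.4 CPM.

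Tac1 (chr6:7554120-7565834, plus strand) was also Lhx6-like, at 6.67 CPM (108 UMIs, 5.47 to 8.05), and was below 1 CPM in the other classes of the plot. Microglia-like nuclei, which are not in the plot, held 10 of the 225 Tac1 UMIs. Pvalb, a marker of fast-spiking basket cells, was at 64.7 CPM in Aox3-led, 43.2 CPM in Myo1e-led and 42.8 CPM in Unc5b-led nuclei. Tac1 was at 18.2 CPM (36 UMIs, 12.7 to 25.2) in the first and 16.1 CPM (38 UMIs, 11.4 to 22.1) in the second of these, and none of its UMIs was found in the 170 Unc5b-led nuclei, where 3 UMIs would be 3.89 CPM. In Aox3-led nuclei 20 of the 36 UMIs came from 3 nuclei of Con-IL-1R1+/+, and without that pool the level was 9.29 CPM (5.31 to 15.1). Sst was at 1.52 and 2.54 CPM in the Aox3-led and Myo1e-led nuclei. An unnamed cluster of 2218 nuclei led by Zfhx3 held a further 55 of the 225 Tac1 UMIs (4.70 CPM), and 1530 of its nuclei came from the single pool Con-IL-1R1+/+.

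Vip (chr10:5589186-5599956, plus strand) was concentrated in few nuclei. Adarb2-like nuclei had 60.6 CPM (517 UMIs, 55.5 to 66.0), neurogliaform-like nuclei 2.03 CPM and Lhx6-like nuclei 1.11 CPM. No Vip UMI was found in 2056 oligodendrocyte-like nuclei, where 3 UMIs would be 0.905 CPM. Vip UMIs were also counted in nuclei classed outside neurons, with 23 of 693 (3.32%) in microglia-like and 7 in oligodendrocyte precursor-like nuclei. The microglia-like count exceeded the 11 UMIs of neurogliaform-like and the 18 of Lhx6-like nuclei. Counts of that size were thus not particular to neurons. Doublets were kept in these counts, and whether the UMIs came from mixed nuclei was not tested. Within the inhibitory nuclei the Gm39185-led sub-cluster of 526 nuclei, whose top genes include Calb2, had 273.5 CPM (418 UMIs, 248 to 301). The next levels were 13.5 CPM from 5 UMIs in the shallow Gm42722-led nuclei (6.96 CPM from 2 UMIs without Con-PLX) and 11.7 CPM (25 UMIs) in the Slc17a8-led nuclei, whose top genes include the cannabinoid receptor gene Cnr1. Of the 18 Vip UMIs in Lhx6-like nuclei, 15 came from Con-nIL-1R1-/-. A Vip UMI was seen in 169 of the 526 Gm39185-led nuclei.

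Cck (chr9:121315695-121324863, minus strand) was the most widespread member, with 1930 UMIs and only 14.6% of them in INH-like nuclei. Adarb2-like nuclei had the highest level at 21.4 CPM (183 UMIs, 18.4 to 24.8). CA1-like nuclei followed with 13.6 CPM (12.1 to 15.1), then other excitatory-like with 10.6 CPM (9.66 to 11.7) and CA2/3-like nuclei with 10.2 CPM (9.06 to 11.5), which did not differ beyond their intervals. Neurogliaform-like, DG-like and Lhx6-like nuclei had 5.90, 5.15 and 4.07 CPM (4.04 to 8.34, 4.28 to 6.14 and 3.15 to 5.18). Oligodendrocyte-like nuclei had 3.02 CPM, below all of these intervals, but their own interval (1.45 to 5.55) overlapped each of them. Microglia-like nuclei had 8.51 CPM (54 UMIs), so levels of this size were also counted in nuclei classed outside neurons, with doublets kept. The peak lay in the Slc17a8-led sub-cluster at 47.1 CPM (101 UMIs, 38.4 to 57.2). There the control pools had 65.9, 81.2, 67.7 and 23.7 CPM and the stress pools 38.5, 20.5, 73.2 and 65.4 CPM, with 4 and 1 UMIs in the PLX5622 pools. Below it, Syt6-led nuclei had 20.1 CPM (52 UMIs). Among excitatory clusters the Tshz2-led nuclei were highest with 22.7 CPM (143 UMIs, 19.1 to 26.7).

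Nts (chr10:102317614-102326396, minus strand) and Adcyap1 (chr17:93506397-93515189, plus strand) had few UMIs in interneurons, 5 of 87 and 7 of 198 UMIs in INH-like nuclei. Nts was highest in other excitatory-like nuclei at 1.16 CPM (48 UMIs, 0.855 to 1.54), and 38 of these UMIs were in the Gm6260-led cluster (4.66 CPM, 3.30 to 6.40). Adcyap1 was at 1.93 CPM in other excitatory-like nuclei (80 UMIs) and 0.72 CPM in CA2/3-like nuclei (20 UMIs). Microglia-like nuclei held 9 Adcyap1 UMIs. The leading clusters of Adcyap1 were the Zfhx3-led unnamed nuclei with 3.93 CPM (46 UMIs), the Gm6260-led nuclei with 3.93 CPM (32 UMIs) and the Tshz2-led nuclei with 3.01 CPM (19 UMIs), which did not differ beyond their intervals. Of the 2218 Zfhx3-led nuclei, 1530 came from Con-IL-1R1+/+, a pool that held 78 of all 198 Adcyap1 UMIs.

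**Figure D2:**
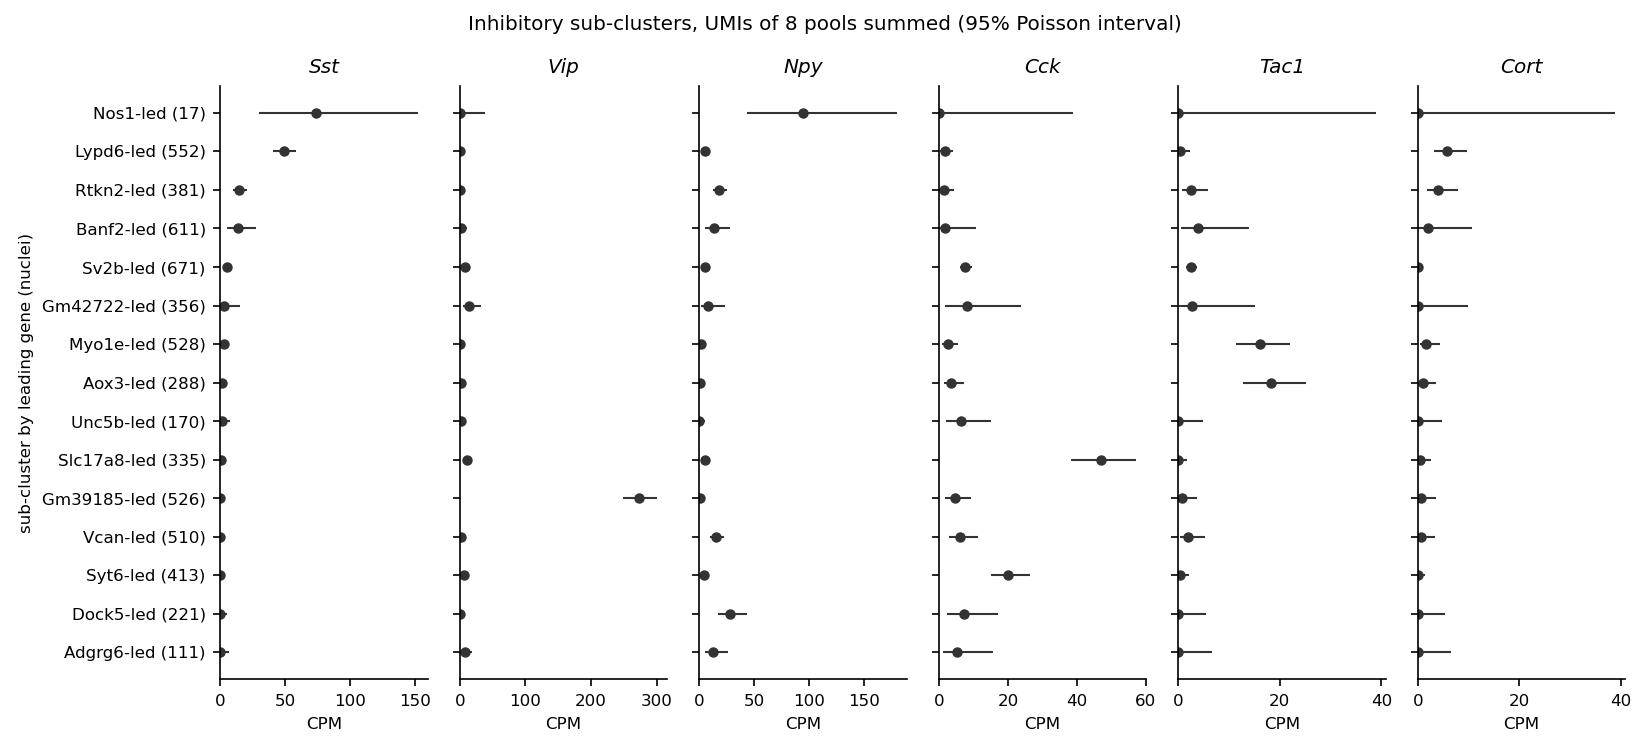
Level (x axis, CPM) of the 6 members found in interneurons in the inhibitory sub-clusters reported here (y axis, leading gene and number of nuclei), UMIs of 8 pools summed, bars exact 95% Poisson intervals. Sst peaks in Lypd6-led and Nos1-led, Vip in Gm39185-led, Cck in Slc17a8-led, Tac1 in Aox3-led and Myo1e-led nuclei, and Npy is spread over several sub-clusters.

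Detection in a nucleus depended strongly on its depth. In INH-like nuclei a Sst UMI was seen in 3.31%, Vip in 4.21%, Npy in 2.83%, Cck in 3.57% and Tac1 in 1.35% of nuclei without thinning. Unthinned shares in oligodendrocyte-like nuclei were 0.0486% for Sst, 0 for Vip, 0.0973% for Npy, 0.389% for Cck and 0.0486% for Tac1. These nuclei were shallower, with a median of 970.5 UMIs. Medians were 2816 in Lhx6-like, 2306 in Adarb2-like and 2485 in neurogliaform-like nuclei, so these shares are not matched in depth. With each nucleus thinned to 500 UMIs the INH-like shares were 0.529%, 1.36%, 0.302%, 0.359% and 0.113%.

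Pairs of peptides were read in the same nuclei. Of 192 nuclei with Sst, 25 (13.0%, exact binomial interval 8.61 to 18.6) also held Npy, against 2.48% of 5600 nuclei without Sst. Median depth was 6439.5 UMIs in the former and 2481.5 in the latter. Of the 25 nuclei with both, 9 came from Con-nIL-1R1-/-. After thinning to 3000 UMIs, a setting chosen after seeing the data, 3 of 69 Sst nuclei held Npy (4.35%, 0.906 to 12.2) against 1.99% of 2566 nuclei, and the interval covers that background. Npy was also seen in 8 of 30 nuclei with Cort (26.7%, 12.3 to 45.9), against 2.71% of those without, at medians of 5166 and 2579 UMIs. No thinned value is given for this pair, so its shares are not matched in depth. Sst and Vip did not meet in a nucleus. None of 192 Sst nuclei held Vip (upper end of the exact binomial interval 1.90%), although 4.36% of the other nuclei did, and at 3000 UMIs it was 0 of 69 (upper end 5.21%) against 3.78%. Vip and Cck were seen together in 16 of 244 Vip nuclei (6.56%, 3.79 to 10.4), against 3.44% of nuclei without Vip. At 3000 UMIs this was 3 of 97 (3.09%, 0.642 to 8.77) against 2.76%. Of the 16 unthinned nuclei with Vip and Cck, 8 came from Con-nIL-1R1-/-. Doublets and the Sv2b-led nuclei were kept in all these counts, and the intervals do not cover the spread between pools.

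Over the 16 named classes, the genes whose level most resembled that of Vip were Htr3a (Pearson r = 0.98 of log2(CPM + 1)), the serotonin receptor gene of this interneuron family, Chat (0.94) and Tac2 (0.93). For Sst they were Akr1c18 (0.84), Gm35725 and Gm35507. Tac1 was most like Myh4 (0.95), Akr1c18 (0.88) and Gm826 (0.88), and Npy was most like Tcp10b (0.86), Mageb18 and Pola1. Gm14377 (0.93), Prkag2os1 and Rad51ap2 led for Cck. For Nts they were 4933411E02Rik (0.87), Tnnt2 and Hrh1, and for Adcyap1 Gm13601 (0.89), AU023762 and Gm43122. Cort fell under the minimum of 50 UMIs. These correlations are descriptions across 16 classes that share libraries, and most of them rest on few UMIs.

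RSD was tested over the 4 pairs with edgeR's quasi-likelihood test on UMIs summed per pool and class, with the pair as a term and Benjamini-Hochberg adjustment over all genes of the class. Sst, Vip, Npy, Cck and Tac1 passed the count filter in at least 1 class, in 14 combinations of member and class, and Cort, Nts and Adcyap1 in none. No member passed an adjusted p of 0.05 in any class with edgeR or DESeq2, although DESeq2 gave no adjusted p in most classes. Only Vip, in INH-like and Adarb2-like nuclei, had an unadjusted p under 0.05. In INH-like nuclei 0 of 5 members were called, where 1 of 11910 genes was called (0.0084%) and 1041 had an unadjusted p under 0.05. In Lhx6-like nuclei 0 of 3 were called beside 2 of 10324 genes (0.0194%). In Adarb2-like nuclei 0 of 2 were called and 0 of 7960 genes (0%), where 422 genes had an unadjusted p under 0.05 and DESeq2 also called 0. In neurogliaform-like nuclei no member passed the count filter, and 0 of 5872 genes were called by edgeR (0%). Without the Sv2b-led nuclei, an alternative added after seeing the data, 9 genes were called in INH-like, 33 in Lhx6-like, 1 in Adarb2-like and 0 in neurogliaform-like nuclei, and still no member. For Cck, the only member tested in excitatory classes, the share of genes called was 0.175% in DG-like, 0.384% in CA1-like, 1.01% in CA2/3-like and 1.71% in other excitatory-like nuclei.

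**Figure D3:**
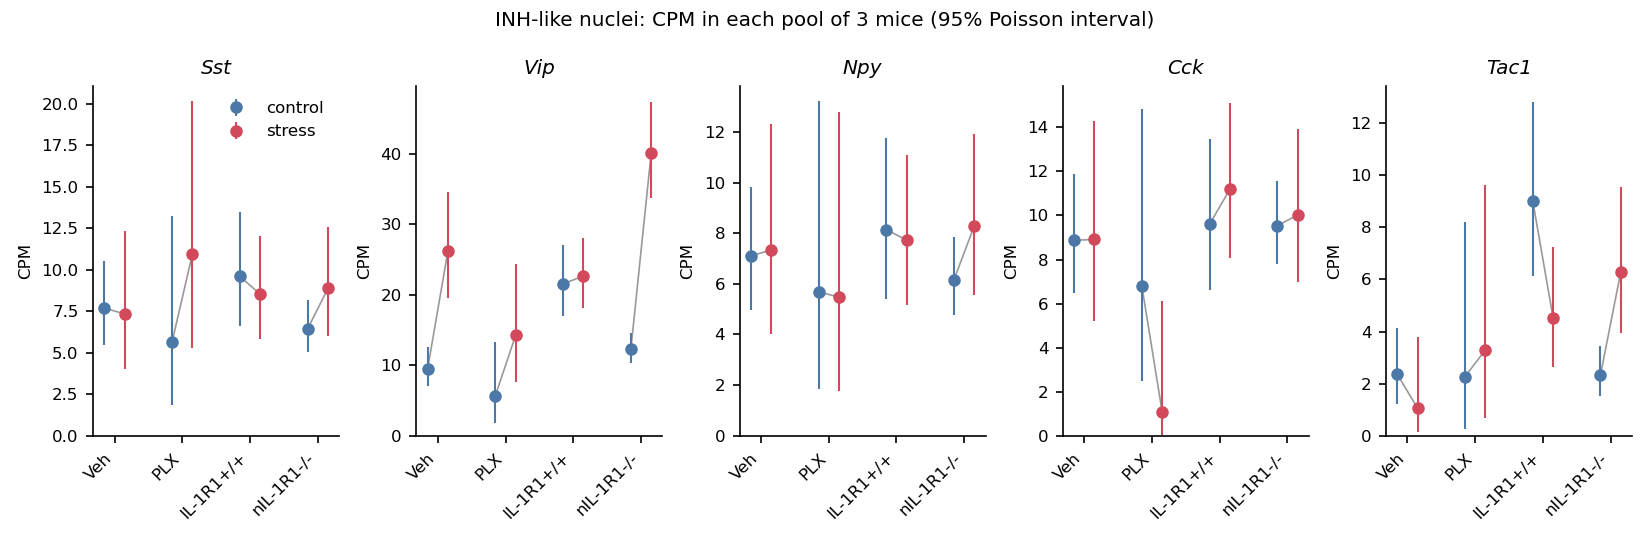
Level (y axis, CPM) of 5 members in the INH-like nuclei of each pool, with control in blue and stress in red, lines joining the pools of a pair (x axis) and bars exact 95% Poisson intervals. For Vip the stress pool lies above its control pool in 4 of 4 pairs, from 5.67 to 21.5 CPM in the control pools and from 14.3 to 40.1 CPM in the stress pools.

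Vip showed the largest ratio of the 14. In INH-like nuclei it was 9.46, 5.67, 21.5 and 12.2 CPM in Con-Veh, Con-PLX, Con-IL-1R1+/+ and Con-nIL-1R1-/- (48, 5, 74 and 131 UMIs). In their stress partners it was 26.2, 14.3, 22.6 and 40.1 CPM (50, 13, 85 and 140 UMIs). The stress pool was higher in 4 of 4 pairs, with a small step in the IL-1R1+/+ pair, and the groups overlapped because Con-IL-1R1+/+ exceeded Stress-PLX. The fitted log2 ratio was 1.12 (SE 0.24), with an unadjusted p of 0.00021 and an adjusted p of 0.147 in the edgeR test. In Adarb2-like nuclei the control pools had 36.8, 15.9, 85.1 and 35.7 CPM and the stress pools 88.9, 55.7, 72.5 and 129 CPM, higher in 3 of 4 pairs. There the log2 ratio was 1.06 (SE 0.26, adjusted p = 0.419 by edgeR).

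The Vip value differed between alternatives. Inhibitory nuclei of the stress pool were shallower than those of the control pool in pairs 1 and 4, with medians of 1734.5 against 3327 and 3077.5 against 6830.5 UMIs, and close in pairs 2 and 3 (805 against 753 and 3741.5 against 4038). Thinned to 500 UMIs, the INH-like log2 ratio was 0.53 (SE 0.32, adjusted p = 0.616 by edgeR). Thinning gave each nucleus equal weight and left out the shallower nuclei, among them 244 of 761 in Con-PLX and 142 of 655 in Stress-PLX. Without pair 3 it was 1.57 (adjusted p = 0.00899 by edgeR) and without pair 4 it was 0.75 (adjusted p = 0.305 by edgeR). With no filter on low counts the adjusted p was 4.75e-05, and with nuclei classed one by one from markers the ratio was 1.48 (adjusted p = 0.0116 by edgeR). Without the Sv2b-led nuclei it was 1.03 (SE 0.21, adjusted p = 0.0739 by edgeR). Without the pair as a replicate block the adjusted p was 0.841. Over 13 alternatives that gave an adjusted p it ranged from 4.75e-05 to 0.841, and 3 of them passed the threshold.

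The Vip UMIs of INH-like nuclei were in 25, 5, 32 and 57 nuclei of the control pools and 19, 9, 37 and 60 nuclei of the stress pools, and the richest nucleus of Stress-nIL-1R1-/- held 15. With the richest nucleus of each pool left out, the control pools had 7.70, 4.57, 18.4 and 11.4 CPM and the stress pools 19.0, 9.90, 20.6 and 35.8 CPM, still higher in 4 of 4 pairs. The share of nuclei with a Vip UMI was 3.91% in control and 4.58% in stress pools on average, a difference of 0.665 points (SD 0.749, higher in 4 of 4 pairs, exact sign-flip permutation p = 0.125, two-sided, the smallest 4 pairs can give). Thinned to 500 UMIs the shares were 1.07% and 1.57%, a difference of 0.496 points (SD 0.608, higher in 3 of 4 pairs, exact sign-flip permutation p = 0.375).

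The Gm39185-led nuclei made up 7.40%, 7.75%, 10.7% and 8.89% of INH-like nuclei in the control pools and 9.19%, 6.26%, 10.3% and 13.0% in the stress pools, so their share was larger under stress in 2 of 4 pairs. Within them Vip was 198, 23.8, 312 and 185 CPM in the control pools and 227, 261, 343 and 418 CPM in the stress pools, higher in 4 of 4 pairs, with a single UMI in Con-PLX. Control and stress intervals overlapped in pairs 1, 2 and 3. In pair 4 they were 146 to 231 and 350 to 496 CPM. The 7 markers of the Adarb2 list, all detected in every pool, summed to 4553 to 5584 CPM in the INH-like nuclei of the control pools and to 4318 to 7043 CPM in those of the stress pools. They were higher under stress in pairs 3 and 4. More Vip nuclei and more Vip RNA per nucleus cannot be told apart from summed counts alone. INH-like nuclei with a Vip UMI held on average 1.92, 1, 2.31 and 2.30 of them in the control pools. In the stress pools they held 2.63, 1.44, 2.30 and 2.33, with no adjustment for depth. The part of depth and nuclear makeup in the ratio was not tested further.

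**Figure D4:**
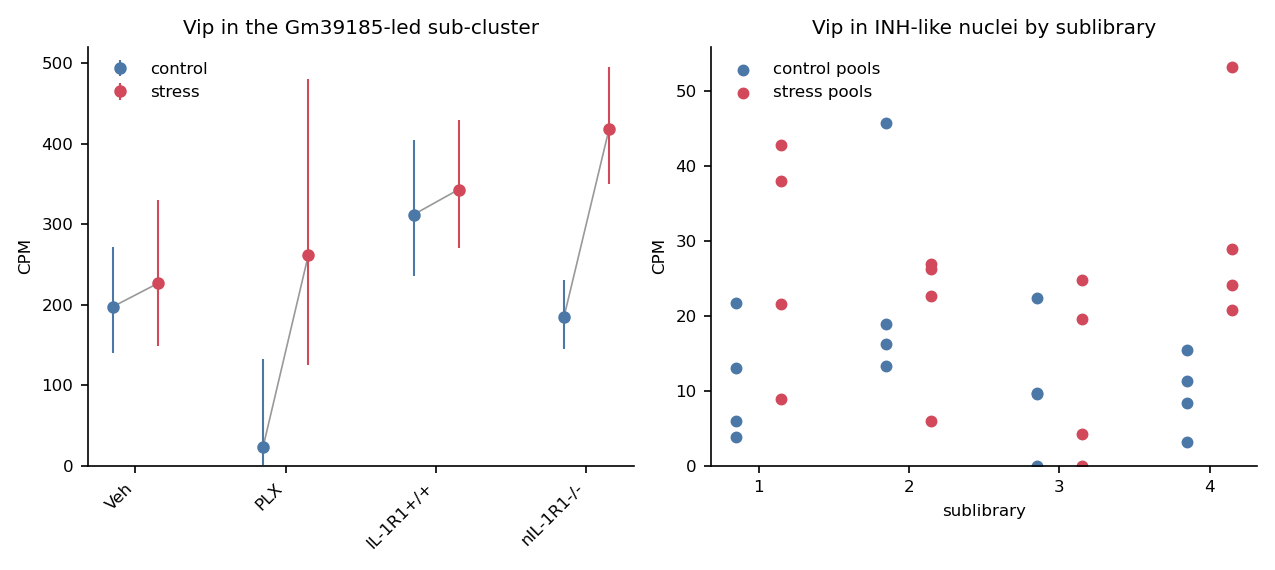
Left, Vip CPM in the Gm39185-led sub-cluster by pair (x axis), control in blue and stress in red, bars exact 95% Poisson intervals. Right, Vip CPM in INH-like nuclei of each pool within each of 4 sublibraries (x axis); in sublibrary 4 the 4 stress pools lie above the 4 control pools, and in the other 3 they overlap.

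The nuclei of every pool were spread over the 4 sublibraries used here. With the pools summed, Vip in INH-like nuclei was 11.3 CPM in control and 29.6 CPM in stress nuclei of sublibrary 1, and 10.0 and 36.0 CPM in sublibrary 4. It was 21.3 and 21.9 CPM in sublibrary 2, and 15.9 and 14.7 CPM in sublibrary 3, which held 41 and 20 UMIs. In each of the 8 pools, sublibraries 1 and 4 held more INH-like UMIs than sublibraries 2 and 3. In Con-Veh these were 1806468 and 1959934 against 687630 and 619603 UMIs. The part of this depth in the Vip values was not tested. The stress pool was higher in 3, 2, 2 and 4 of 4 pairs in sublibraries 1 to 4. These values, chosen after seeing the data, carry no test.

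Sst, Npy and Tac1 gave smaller ratios than Vip, none of which passed the test. In INH-like nuclei the log2 ratios were 0.18 for Sst (SE 0.24, adjusted p = 0.873 by edgeR), 0.14 for Npy (SE 0.25) and 0.07 for Tac1 (SE 0.42). In Lhx6-like nuclei they were 0.12 for Sst (SE 0.23), 0.46 for Npy (SE 0.31, adjusted p = 0.689 by edgeR) and 0.12 for Tac1 (SE 0.42). Without the Sv2b-led nuclei the direction of Sst turned, to -0.19 in INH-like (SE 0.25) and -0.28 in Lhx6-like nuclei (SE 0.25). Npy was then at -0.02 in INH-like and 0.49 in Lhx6-like nuclei and Tac1 at -0.06 and -0.0026, and none passed the test. Npy in Lhx6-like nuclei was 7.73, 8.76, 5.53 and 6.09 CPM in the control pools and 8.87, 7.27, 8.59 and 10.0 CPM in the stress pools. These ranges overlap and the stress pool was higher in pairs 1, 3 and 4. Tac1 in Lhx6-like nuclei was 3.87, 0, 14.6 and 4.76 CPM in the control pools and 1.97, 5.45, 8.11 and 10.5 CPM in the stress pools. In Con-PLX, with the value of 0, 3 UMIs would be 6.57 CPM, and the Stress-PLX value rests on 3 UMIs. Con-IL-1R1+/+ was the highest of the 8, and 18 of its 31 INH-like Tac1 UMIs came from 1 nucleus. Cort had 7, 0, 6 and 4 UMIs in the Lhx6-like nuclei of the control pools and 0, 0, 8 and 6 in those of the stress pools.

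**Figure D5:**
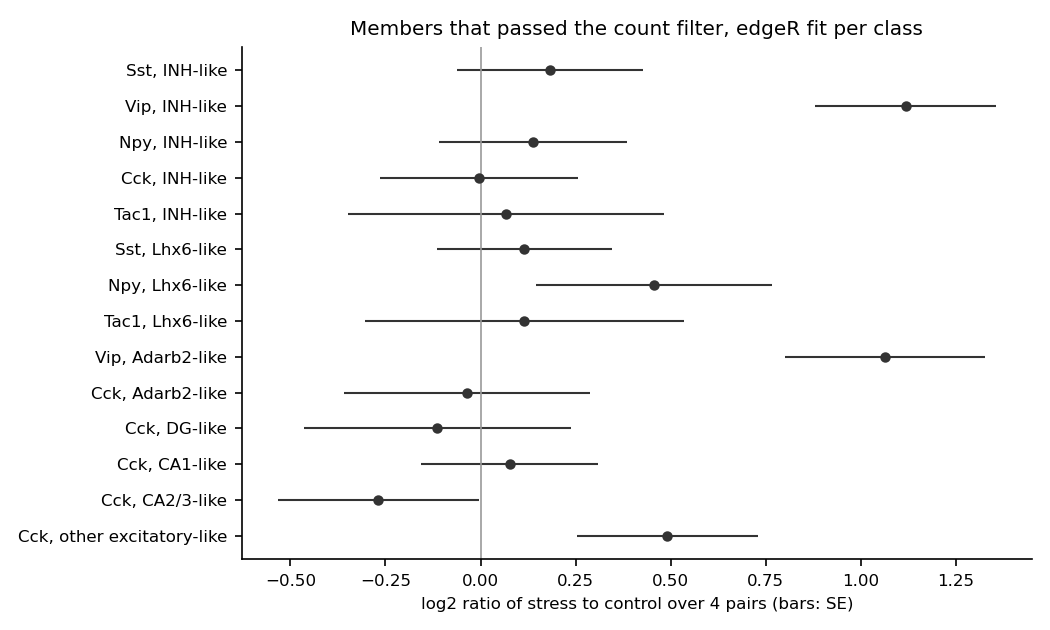
Fitted log2 ratio of stress to control over 4 pairs (x axis, bars SE) for the 14 combinations of member and class (y axis) that passed the count filter. Vip in INH-like and Adarb2-like nuclei lies at 1.12 and 1.06, and the others lie between -0.27 and 0.49.

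Cck gave no shared direction over classes. Its log2 ratio was near 0 in INH-like nuclei, -0.03 in Adarb2-like (SE 0.32), -0.11 in DG-like (SE 0.35), 0.08 in CA1-like (SE 0.23), -0.27 in CA2/3-like (SE 0.27) and 0.49 in other excitatory-like nuclei (SE 0.24, adjusted p = 0.372 by edgeR). In other excitatory-like nuclei the control pools had 8.56, 4.58, 5.31 and 11.05 CPM and the stress pools 8.38, 8.25, 13.3 and 12.9 CPM, higher in 3 of 4 pairs. The makeup of this class differed between pools, since within pair 3 it made up 8.95% of control and 25.6% of stress nuclei. Its Igfn1-led cluster had 196, 165, 55 and 182 nuclei in the control pools and 685, 137, 597 and 633 in the stress pools, more under stress in pairs 1, 3 and 4 and fewer in pair 2. Without this cluster the log2 ratio of Cck was 0.47 (SE 0.26, adjusted p = 0.519 by edgeR). In Adarb2-like nuclei the control pools had 26.6, 23.9, 26.3 and 16.5 CPM and the stress pools 14.2, 4.28, 29.0 and 25.7 CPM. The stress pool was lower in both diet pairs and higher in both genotype pairs, and the Stress-PLX value rests on 1 UMI.

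Too few UMIs of Nts and Adcyap1 were found for a test. In other excitatory-like nuclei Nts had 10, 0, 13 and 10 UMIs in the control pools and 2, 2, 3 and 8 in the stress pools. Adcyap1 had 4, 1, 19 and 14 UMIs in the control pools and 3, 1, 24 and 14 in the stress pools. Con-IL-1R1+/+ had the highest level of both, at 3.63 CPM for Nts and 5.31 CPM for Adcyap1.

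Whether RSD acted differently in the genotype pairs and the diet pairs was tested in INH-like nuclei with an interaction term, in which 1 of 11910 genes was called (0.0084%). None of the 5 tested members was called. The difference of log2 ratios, genotype minus diet pairs, was -0.43 for Vip (SE 0.51), 0.48 for Cck (SE 0.55), 0.73 for Tac1 (SE 1.08), 0.19 for Npy (SE 0.53) and -0.03 for Sst (SE 0.52), with adjusted p from 0.841 to 0.996 by edgeR. A difference between nIL-1R1-/- and IL-1R1+/+ mice alone rests on 1 pair each and was not tested.

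Receptors of these peptides were read from a list of 20 genes. In other excitatory-like nuclei 1 of 11 tested receptors was called, beside 211 of 12360 genes (1.71%). This was Cckbr, the brain cholecystokinin receptor, which rose there and was the only receptor called in any class. It was 11.8, 20.1, 8.38 and 11.3 CPM in the control pools and 31.0, 17.4, 20.1 and 17.7 CPM in the stress pools, higher in pairs 1, 3 and 4 and lower in pair 2. The log2 ratio was 0.90 (SE 0.22, adjusted p = 0.0497 by edgeR). The pairs with a rise were those in which the Igfn1-led cluster was larger under stress. Without that cluster the ratio was 0.54 (SE 0.22, adjusted p = 0.3155 by edgeR) and the call was lost. The part of that cluster in the rise was not tested. The adjusted p of Cckbr ranged from 0.000255 to 0.537 over 14 alternatives, and 5 of them kept the call. It was also lost without pair 1 (0.70, adjusted p = 0.428), without pair 3 (0.152), without pair 4 (0.197), with DESeq2 (0.108), without the pair as a replicate block (0.195), with marker classes (0.311), at resolution 2 (0.0877) and after thinning to 500 UMIs (0.537). In INH-like nuclei 0 of 7 receptors were called, with a median log2 ratio of 0.09 against 0.0029 over all genes tested. The PACAP receptor Adcyap1r1 had 2352 UMIs there (log2 ratio 0.31, SE 0.11, adjusted p = 0.434 by edgeR), the VIP receptor Vipr1 224 (-0.19, SE 0.26), the neuropeptide Y receptor Npy1r 212 (0.19, SE 0.27), Cckbr 188 (-0.09, SE 0.35) and Tacr1, the substance P receptor, 458 (0.09, SE 0.17). The somatostatin receptor Sstr2 and the neurotensin receptor Ntsr1, with 72 and 97 UMIs, did not pass the count filter. Tacr1 was at 47.4 CPM in neurogliaform-like nuclei and 9.81 CPM in Lhx6-like nuclei. In the latter its log2 ratio was 1.27 (SE 0.28, adjusted p = 0.104 by edgeR), with 5.27, 10.9, 7.54 and 6.28 CPM in the control pools and 16.8, 19.99, 11.9 and 19.0 CPM in the stress pools. The ranges of the control and stress pools did not overlap, but the test across genes was not passed, and 2 of the 12 alternatives that gave an adjusted p passed it. These were no filter on low counts (1.27, adjusted p = 0.00469 by edgeR) and leaving out the Sv2b-led nuclei (1.73, adjusted p = 0.0152 by edgeR). With nuclei classed by markers the log2 ratio was 0.42 (adjusted p = 0.4997 by edgeR). Tacr1 was among the leading genes of the Nos1-led nuclei, all 17 of them Lhx6-like. These nuclei numbered 1, 0, 1 and 0 in the control pools of pairs 1 to 4 and 3, 2, 6 and 4 in the stress pools. Their part in the Tacr1 ratio was not tested. In DG-like nuclei 0 of 7 receptors were called, in CA1-like 0 of 8 and in CA2/3-like 0 of 7.

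Of 15 genes for peptide processing and dense-core vesicles, among them the convertases Pcsk1 and Pcsk2 and the granins Scg2, Chga and Chgb, all 15 were tested in INH-like nuclei and none was called in any class. Their median log2 ratio in INH-like nuclei was -0.03. Another list of 15 genes held other neuropeptide precursors and the growth factor gene Igf1. Of these, 4 passed the filter in INH-like nuclei and none was called. Their median log2 ratio was 0.49 against 0.0029 over all genes tested. Of these 4, Vgf and Igf1, named after their values were seen, had an unadjusted p under 0.05 (0.63, SE 0.21, and 0.36, SE 0.12, both at an adjusted p of 0.409 by edgeR). Over all genes tested in INH-like nuclei, 1041 of 11910 had an unadjusted p under 0.05. In Adarb2-like nuclei 2 passed the filter, both with an unadjusted p under 0.05, at a median of 0.60, and neither was called. There 422 of all 7960 genes tested had an unadjusted p under 0.05. In CA2/3-like nuclei, where 110 of 10904 genes were called (1.01%), 1 of 15 passed the filter. This was Vgf, the precursor of several secretory peptides, and it rose, with a log2 ratio of 1.07 (SE 0.26, adjusted p = 0.0444 by edgeR). Its levels were 10.2, 7.62, 6.23 and 9.30 CPM in the control pools and 33.0, 9.73, 17.4 and 9.88 CPM in the stress pools, higher in 4 of 4 pairs, with a step from 9.30 to 9.88 CPM in pair 4. The call of Vgf was kept in 5 of the 11 alternatives that gave an adjusted p. It was lost without pair 1 (0.74, adjusted p = 0.551 by edgeR), without pair 2 (0.0813), without pair 3 (0.181), without the pair as a replicate block (0.464), without doublets (0.0517) and with marker classes (0.107).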

How the data were processed

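Single-nucleus RNA was barcoded by split-pool ligation (Parse Biosciences) in sublibraries, of which 4 were used here, each with nuclei of all 8 pools. The authors deposited UMI counts per nucleus and gene, aligned to mm39 with the Parse pipeline and, per the labels, handled in Seurat 4.1.1. The 8 members and the gene lists were chosen with earlier results of these data known. Total UMIs per pool ran from 7534594 to 58081835. Nuclei over 20% mitochondrial UMIs were left out. Counts were normalised, and 2000 variable genes without the members were clustered (scanpy 1.11.5, 30 principal components, Leiden resolution 1). A cluster was named from at least 3 detected markers, and the thresholds of naming were set after seeing the clusters. Inhibitory nuclei were clustered again, and 1 of the sub-clusters is not reported here. Doublets were not removed in the main results, because the Scrublet threshold failed, and the highest 6% of scores per pool were left out as an alternative. UMIs were summed per pool and class and tested with edgeR 4.0.16 (TMM, filterByExpr, quasi-likelihood, pair as a term), with SE from the F statistic, and DESeq2 1.42.0 was an alternative. The pair is the diet or genotype that a control and a stress pool share. Deviations from the group means of paired pools correlated at 0.015 to 0.245. On simulated counts for INH-like nuclei (11910 genes), 78.5% of genes changed 2-fold and 95.7% of genes changed 4-fold were called. The changed genes were drawn from all genes past the filter, and the simulated pairs did not differ from each other. These shares therefore do not say how often a change in a sparse member would be called. Shares were compared with an exact sign-flip permutation test over 4 pairs, which cannot give a p under 0.125. Each pool holds 3 mice and there is 1 pool per condition, so p-values measure the spread between these pools. Members were named in every class with 10 UMIs in a pool, listed genes where called, and where none was called the receptor of each member with the most UMIs in the class, and the 3 genes most like each member. Co-detection at 3000 UMIs, Vip within sublibraries, levels without single pools, and fits without the Sv2b-led or Igfn1-led nuclei were added after seeing the data. Intervals have 95% confidence and floors are 3 UMIs, and both cover counting error only.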

Additional observations from a re-analysis of the deposited data

Results flagged for a closer look

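Tac1 in INH-like nuclei was at 9.02 CPM in Con-IL-1R1+/+ and at 2.27 to 2.37 CPM in the other 3 control pools, and the gap was 0.986 of the whole range, above Dixon's 95% critical value for 4 samples. It was picked out because 1 pool lay far from the others of its group, which chance gives in about 1 of 20 groups, and 28 groups were looked at. In that pool 31 Tac1 UMIs were held by 13 nuclei, 18 of them by 1 nucleus, and without it the level was 3.82 CPM.

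Cck in Adarb2-like nuclei was lower in the stress pool of both diet pairs and higher in that of both genotype pairs. In the vehicle pair the difference, stress minus control, was -12.4 CPM. The difference between diet and genotype pairs was not tested in this class. In the PLX5622 pair it rests on 6 and 1 UMIs.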

How the results depend on the processing

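No member was called in any class, and under the alternatives 1 member, Vip, was called in INH-like and Adarb2-like nuclei with no filter on low counts and with marker classes. Leaving out a pair gave 0 to 1 in both, the 1 being without pair 3. Of 178 member ratios under alternatives, 154 kept direction and side of the threshold, 6 passed it (all Vip) and 18 turned direction. With a pair left out, the log2 ratios that turned ranged from -0.023 to 0.22 for Npy and -0.14 to 0.11 for Cck in INH-like nuclei, and for Cck from -0.43 to 0.23 in Adarb2-like, -0.43 to 0.30 in DG-like and -0.15 to 0.17 in CA1-like nuclei. Others that turned were Cck with marker classes (0.34 in INH-like, 0.066 in Adarb2-like), and Tac1 in INH-like nuclei with DESeq2 (-0.020) and at resolution 2 (-0.030). Vip within sublibrary 3 was at -0.12, a log2 ratio of summed CPM that was neither fitted nor tested. Without the Sv2b-led nuclei, Sst (-0.19), Npy (-0.016) and Tac1 (-0.062) turned in INH-like and Sst (-0.28) and Tac1 (-0.0026) in Lhx6-like nuclei. None passed the threshold, and the cause was not tested. Among receptors in INH-like nuclei, Vipr1 was at 0.23 with marker classes and 0.032 without the Sv2b-led nuclei, with a range of -0.32 to 0.093 with a pair left out. Cckbr was at 0.56 with marker classes and at -0.42 to 0.27 with a pair left out.

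Without the pair as a replicate block, Cck in Adarb2-like nuclei was at 0.012, no member was called, Vgf and Cckbr lost their calls, and the genes called fell from 211 to 17 in other excitatory-like nuclei and to 0 in every other class with a call. Without the Igfn1-led cluster 118 were called in other excitatory-like nuclei.

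The difference in share of INH-like nuclei, stress minus control, was -1.02 points for Npy unthinned, 0.0669 for Cck and 0.141 for Tac1 at 1000 UMIs, and for Sst with Npy -0.109 unthinned and 0.0958 at 1000 UMIs. At 500 UMIs levels moved to 20.4 CPM for Sst and 3.52 for Tac1 (Lhx6-like), 8.15 for Npy (neurogliaform-like), 108 for Vip (Adarb2-like) and 1.47 for Adcyap1 (CA2/3-like), and Vip was 66.2 CPM without doublets. The genes called over all alternatives ranged from 0 to 62 in INH-like, 0 to 79 in Lhx6-like, 0 to 16 in Adarb2-like, 0 to 5 in neurogliaform-like, 0 to 97 in DG-like, 0 to 168 in CA1-like, 0 to 209 in CA2/3-like and 8 to 521 in other excitatory-like nuclei. Cort, Nts and Adcyap1 had too few UMIs for a test.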

Other observations

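Adcyap1r1, the PACAP receptor, was at 110 CPM in DG-like nuclei and 77.99 CPM in INH-like nuclei, against 44.7 CPM in other excitatory-like, 17.5 CPM in CA1-like and 12.9 CPM in CA2/3-like nuclei. Each of the 8 pools had a higher level in DG-like than in CA1-like nuclei. Vipr1 was at 32.9 CPM in other excitatory-like, 29.4 CPM in DG-like and 7.43 CPM in INH-like nuclei. Npy1r was at 20.5 CPM in DG-like and 15.5 CPM in Adarb2-like nuclei and at 3.09 CPM in CA2/3-like nuclei. These levels are sums over 8 pools and carry no test between classes.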
